A study of Mus musculus with 3 samples.

Results

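The 8 genes described here are Nr3c1, Fkbp5, Tsc22d3, Pck1, Pdk4, Klf9, Foxo1 and Foxo3. They were chosen by gene symbol, as the glucocorticoid receptor, well-known glucocorticoid-induced genes and genes of the fasting response, and each symbol matched 1 of the 39179 genes in the deposited count table. All 8 passed the filter on low counts, among 17587 genes tested. The libraries hold RNA recovered by immunoprecipitation from white fat of C57BL/6 mice carrying a Flag-FTO transgene, aged 16 weeks and fasted overnight. FTO is a demethylase of adenosines in RNA. Flag-IP is the precipitate made with the anti-Flag M2 monoclonal antibody, which binds the tag on FTO, and has 2 libraries. IgG-IP is the precipitate made with IgG in place of that antibody, from mice of the same genotype, age and fasting state, and has 1 library. The comparison is therefore of antibodies, and asks which RNAs are more abundant with the tagged protein than with IgG: no fed mice, no mice without the transgene and no input RNA are compared here. The promoter of the transgene is not given in the sources used here, nor is whether the libraries came from separate animals or pools. The p-values therefore rest on the spread between the 2 Flag-IP libraries, shared over all genes, which may be technical. The 1 IgG-IP library shows no spread of its own and is assumed to vary likewise.

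Glucocorticoids rise in fasting and act through the glucocorticoid receptor, a nuclear receptor that waits in the cytoplasm bound to heat shock protein 90 and its cochaperones. Once it has bound hormone it enters the nucleus and induces its target genes, among them Fkbp5, whose product returns to the receptor complex and lowers its affinity for hormone. Falling insulin at the same time lets the FOXO transcription factors into the nucleus, where they switch on genes of fuel use. In white fat the combined response favours release of fatty acids, sparing of glucose and the making of glycerol from pyruvate.

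Of the 8 genes, only Fkbp5 differed between the precipitates past the threshold, an adjusted p under 0.05 from edgeR's quasi-likelihood test across all genes. It was higher in Flag-IP, at 3415 and 3314 normalised counts, than in IgG-IP, at 1416 normalised counts, a fold of 2.38 with a 95% interval of 1.71 to 3.3. The other 7 genes did not pass, with log2 fold changes of Flag-IP over IgG-IP from -0.68 for Nr3c1 to 1.20 for Pck1. For comparison, 981 genes (5.58% of those tested) were higher in Flag-IP and 1015 (5.77%) were lower. With counts scaled by library totals alone, 342 were higher and 3008 lower, and the median log2 fold change of all genes moved by -0.52, so every fold change here is relative to the bulk of genes. A normalised count is the read count of the gene scaled to a common library size after TMM normalisation.

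The Flag-IP libraries held 98227791 and 95824218 counts and the IgG-IP library 74176962, most of them in 28 genes of at least 100000 counts. Outside those genes the libraries were alike in depth, with 2369795 and 2345893 counts in Flag-IP and 2246445 in IgG-IP, with a median over tested genes of 24 and 26 counts in Flag-IP and 25 in IgG-IP. The 8 genes are thus measured from few reads: apart from Fkbp5 their counts lay between 10 and 134 in a library. Among markers of white adipocytes, the defining gene Adipoq had 18 and 14 counts in Flag-IP and 3 in IgG-IP and did not pass, while Lpl, a lipase also made by other cells, had 3108 and 1996 in Flag-IP and 2666 in IgG-IP. The adipocyte list summed to 5960 and 4060 normalised counts in Flag-IP and 3210 in IgG-IP, with 3 of 13 tested genes higher (Plin1, Plin4 and Aqp7) and 1 lower (Cd36). Without Aqp7, left out after its values were seen, the list summed to 3880 and 2450 normalised counts in Flag-IP and 3020 in IgG-IP, so that IgG-IP lay between the Flag-IP libraries. Most of that sum was Lpl, at 3347 and 1977 normalised counts in Flag-IP and 2511 in IgG-IP, so it says little of the other adipocyte genes. The median log2 fold change of the 13 tested adipocyte genes was 1.06, beside 0.03 for all genes tested and 1.16 for a lymphocyte list. A skeletal muscle list summed to 156 and 84.2 normalised counts in Flag-IP and 45.2 in IgG-IP, with 2 of 4 tested genes higher (Ckm and Tnnt3). The liver list summed to 37.7 and 40.6 in Flag-IP and 40.5 in IgG-IP. Of the remaining lists, 1 stromal gene was higher (Col6a1, 167 and 39 counts in Flag-IP and 48 in IgG-IP, so its difference rests on the first Flag-IP library) and 1 lymphocyte gene was lower (Ptprc). No gene of the brown adipocyte, macrophage, endothelial or smooth muscle lists passed. With the GC trend removed only Aqp7 and Plin4 of these marker genes still passed, and Ckm and Tnnt3 were also lost with total-count scaling, as was Col6a1. Removing the GC trend also made 1 adipocyte gene lower in Flag-IP that had not passed before. Plin4 and Tnnt3 overlap Hdgfl2 and Prr33, so their counts are uncertain. The part of these cell types in the results for the 8 genes was not tested. In precipitates from bulk tissue, the number of cells of a type, the RNA per cell and its recovery in the precipitate cannot be told apart.

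**Figure D1:**
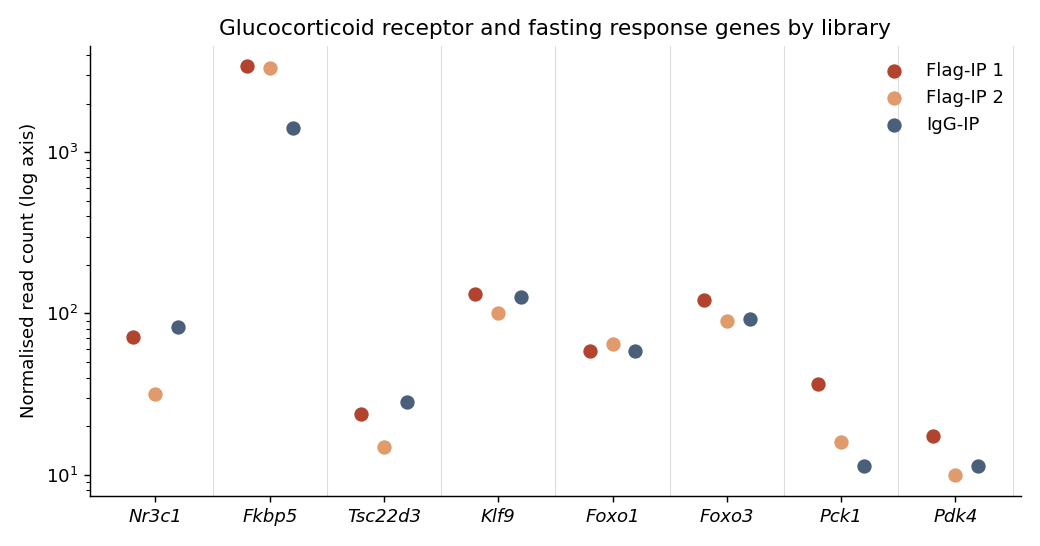
Normalised counts of the 8 genes in each library on a log axis, with the Flag-IP libraries to the left of the IgG-IP library. Fkbp5 stands at 3415 and 3314 in Flag-IP and 1416 in IgG-IP, and in the other 7 genes the points lie between 9.90 and 131.

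Nr3c1 encodes the glucocorticoid receptor itself. The gene lies on chromosome 18, at 39410545 to 39519421 on the minus strand of GRCm38, the build of all positions given here. It had 66 and 32 counts in Flag-IP and 87 in IgG-IP, or 71.1 and 31.7 normalised counts in Flag-IP and 82.0 in IgG-IP. Both Flag-IP libraries lay below IgG-IP, but they lay farther from each other than the higher of them lay from IgG-IP. The first Flag-IP library was 2.24-fold above the second, and the 95% counting interval of that log2 ratio, 0.54 to 1.82, excludes 0. Against IgG-IP the fitted log2 fold change was -0.68 ± 0.33 (SE), with an unadjusted p of 0.0396 and an adjusted p of 0.176 by edgeR's quasi-likelihood test. It was -1.37 from the second Flag-IP library alone and -0.20 from the first alone. With total-count scaling Nr3c1 was lower in Flag-IP past the threshold, at a log2 fold change of -1.22 and an adjusted p of 0.00811 by edgeR's test.

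**Figure D2:**
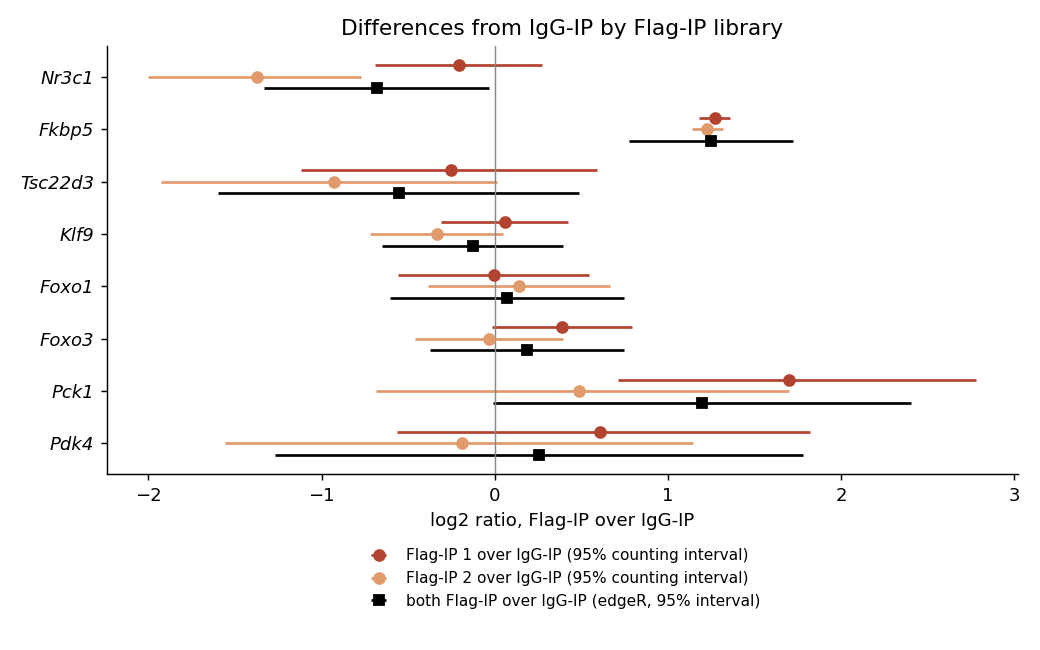
Fitted log2 fold change of Flag-IP over IgG-IP for each of the 8 genes with its 95% interval, and the log2 ratio of each single Flag-IP library to IgG-IP with its 95% counting interval. The fitted interval of Fkbp5, 0.77 to 1.72, and that of Nr3c1, -1.33 to -0.03, exclude 0, but only Fkbp5 passes the adjusted threshold.

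Fkbp5 encodes a peptidyl-prolyl isomerase that binds heat shock protein 90 and acts as a cochaperone of the receptor, and its induction is widely used as a readout of glucocorticoid action. The gene covers 118434 bases of chromosome 17, from 28399094 to 28517527 on the minus strand, of which annotated exons make up 7.99%. Since the tested interaction is with RNA and FTO acts on N6-methyladenosine, the places where the longest annotated transcript carries GGACT on its sense strand are shown. GGACT is a common core of the sequence at which adenosines of mRNA are methylated. The transcript has 3858 bases, and the motif, in capitals, starts at positions 659 and 1570 of it, in the coding sequence, and at 1977, in the 3′ UTR, counted from 1 at its 5′ end.
Fkbp5 coding, first: aaaagagtggGGACTagtgacgagg
Fkbp5 coding, second: caaggcccttGGACTggacagtgcc
Fkbp5 3′ UTR: ctccaactcaGGACTgaacagtgtt
The first window is chr17:28438106-28438130 and the last chr17:28400964-28400988. The second crosses a splice junction and joins 28406085 to 28406088 with 28402828 to 28402848. At 0.778 per kilobase the motif was less dense in Fkbp5 than in the median protein-coding transcript, at 1.03 per kilobase, and 93.3% of protein-coding transcripts hold at least 1. A match describes these letters only: methylation was not measured.

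Fkbp5 had 3171 and 3346 counts in Flag-IP and 1503 in IgG-IP. In normalised counts Flag-IP averaged 3364 ± 71.6 (SD, n = 2), against 1416 in the 1 IgG-IP library, so both Flag-IP libraries were far above IgG-IP and close to each other. The first and second Flag-IP libraries were 2.41-fold and 2.34-fold above IgG-IP, while they differed from each other by 1.03-fold. The fitted log2 fold change was 1.25 ± 0.24 (SE) with an adjusted p of 1.97e-05 by edgeR's quasi-likelihood test. Leaving out the first or the second Flag-IP library left it at 1.23 or 1.27, values with no test because no replicate then remains.

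Fkbp5 was also the member with by far the most reads. Among 14920 protein-coding genes tested it ranked 71 and 64 by count in the Flag-IP libraries and 115 in IgG-IP. The other 7 genes together had 426 and 330 counts in Flag-IP and 435 in IgG-IP. Genes so deeply counted pass the test more often: 37 of the 158 protein-coding genes that averaged 1000 counts or more were higher in Flag-IP (23.4%) and 22 were lower (13.9%), beside 5.22% and 5.97% of all protein-coding genes. The fold of Fkbp5 lay at percentile 90.5 among those 158 genes and at 88.6 among all protein-coding genes tested. The small RNA gene Gm22146, annotated inside Fkbp5 on the opposite strand, had 0 counts in all libraries, and 3 further genes annotated there have no deposited counts. Because the counting rule is not known, whether reads of these genes were counted for Fkbp5 cannot be told.

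The genes whose 3 normalised counts were most like those of Fkbp5, by Euclidean distance on the log2 scale among the 4979 genes that averaged 50 counts or more, were Kcnip1, Cd44 and Nrg4. Kcnip1, a potassium channel interacting protein, had 2769 and 2800 counts in Flag-IP and 1598 in IgG-IP, at a distance of 0.335. Cd44, a hyaluronan receptor, had 3625 and 3372 counts in Flag-IP and 1842 in IgG-IP, at 0.351. Nrg4, a secreted factor of fat, had 3551 and 3203 counts in Flag-IP and 1965 in IgG-IP, at 0.424. All of these were higher in Flag-IP by the same test. Genes chosen by the same 3 counts share the pattern of the gene they were matched to by construction. This holds here and for Nr3c1, so the calls of these neighbours add no support. For Nr3c1 the nearest were Rpgr, Jhdm1d and the lincRNA Gm11924, at distances of 0.194, 0.219 and 0.219, none past the threshold, and each with more counts in the first Flag-IP library than in the second (63 and 33 counts in Flag-IP and 77 in IgG-IP for Rpgr).

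Tsc22d3, or Gilz, encodes a leucine zipper protein induced by glucocorticoids that mediates part of their anti-inflammatory action. It lies on chromosome X at 140539528 to 140600659 on the minus strand. It had 22 and 15 counts in Flag-IP and 30 in IgG-IP, or 23.7 and 14.9 normalised counts in Flag-IP and 28.3 in IgG-IP. Both Flag-IP libraries were below IgG-IP, by a log2 fold change of -0.56 ± 0.53 (SE) that did not pass (adjusted p = 0.560, edgeR's quasi-likelihood test). At these counts only a difference of about 2.78-fold would have passed, so a smaller one was not detectable at this depth.

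Klf9 encodes a Krüppel-like transcription factor and is a direct target of the receptor in many tissues. It lies on chromosome 19 at 23141226 to 23168134 on the plus strand. It had 131 and 100.0 normalised counts in Flag-IP and 126 in IgG-IP, so the IgG-IP library lay between the Flag-IP libraries. The log2 fold change was -0.13 with a 95% interval of -0.65 to 0.39, an interval that still spans a fold of 0.637 to 1.31. The microRNA gene Mir1192 inside Klf9 had 0 counts in all libraries.

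Of the 8 genes, 7 have promoter windows in RefSeq (GRCm38.p6), 9 windows of 300 bases each, and these were searched on both strands for the sequences the receptor and FOXO factors are known to bind. The palindromic glucocorticoid response element was in 0 of the 9, and in 3 of all 32851 windows. Its right part alone, TGTTCT, was in 1 of the 9 (Tsc22d3) and in 19.0% of all windows. The FOXO motif GTAAACA was in 1 of the 9 (Klf9) and in 3.65% of all windows. The matches are shown with the motif in capitals because they are the only ones in the 9 windows.
Tsc22d3, TGTTCT: gcattcgacaTGTTCTaagttctgag
Klf9, GTAAACA: gggggagaaaGTAAACAgagttgaatc
The window from Tsc22d3 is chrX:140600692-140600717 on the minus strand, with the motif starting 185 bases before the RefSeq transcript start to which its window belongs, a start inside the gene as annotated above. That from Klf9 is chr19:23141116-23141142 on the plus strand, 100 bases before its RefSeq start. A match is a description and shows no binding.

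Foxo1 and Foxo3 encode forkhead factors that insulin signalling holds out of the nucleus through phosphorylation by AKT. Foxo1, on chromosome 3 at 52268336 to 52353221 on the plus strand, had 58.2 and 64.4 normalised counts in Flag-IP and 58.4 in IgG-IP. Its IgG-IP value lay between the Flag-IP values, and the log2 fold change was 0.07 with a 95% interval of -0.60 to 0.74. An antisense gene, Gm20402, shares 674 exonic bases with Foxo1 and had 0 counts in all libraries. Foxo3, on chromosome 10 at 42181841 to 42276755 on the minus strand, had 121 and 90.1 normalised counts in Flag-IP and 92.3 in IgG-IP. Again the IgG-IP library lay between the others, and the log2 fold change was 0.19 with a 95% interval of -0.37 to 0.75.

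Pck1 encodes cytosolic phosphoenolpyruvate carboxykinase, the controlling enzyme of glyceroneogenesis in fat, which glucocorticoids are known to repress there while inducing it in liver. It lies on chromosome 2 at 173153048 to 173159273 on the plus strand and, at 6226 bases, is the shortest of the 8 genes. It had 34 and 16 counts in Flag-IP and 12 in IgG-IP, or 36.6 and 15.8 normalised counts in Flag-IP and 11.3 in IgG-IP. Both Flag-IP libraries were above IgG-IP, the first by 3.24-fold and the second by 1.4-fold, and the counting interval of the log2 ratio excluded 0 in the first (0.71 to 2.78) but not in the second. The fitted log2 fold change of 1.20 ± 0.62 (SE) was about as large as that of Fkbp5, yet it did not pass (adjusted p = 0.209, edgeR's quasi-likelihood test). Leaving out the first Flag-IP library put it at 0.48 and leaving out the second at 1.69.

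Pdk4 encodes a kinase that shuts down pyruvate dehydrogenase and so spares glucose in fasting, and is a target of both the receptor and FOXO factors. It lies on chromosome 6 at 5483351 to 5496309 on the minus strand. It had 16 and 10 counts in Flag-IP and 12 in IgG-IP, the fewest of the 8 genes on average. The IgG-IP library lay between the others after normalisation, the log2 fold change was 0.25 ± 0.78 (SE), and only a difference of about 4.45-fold would have passed.

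Across the 8 genes, the IgG-IP library lay outside the range of the Flag-IP libraries in 4, below both for Fkbp5 and Pck1 and above both for Nr3c1 and Tsc22d3. Among all genes tested it lay outside in 79.5%, below both in 40.5% and above both in 39.0%. The median log2 fold change of the 8 genes was 0.13, beside 0.03 for all genes tested. That median followed the Flag-IP library used, at 0.22 for the first and -0.10 for the second, and 7 of the 8 genes were higher in the first Flag-IP library than in the second. Over all genes 50.4% were. Calls depend on depth: among protein-coding genes averaging 50 to 200 counts, as Nr3c1, Klf9, Foxo1 and Foxo3 do, 7.08% were higher and 12.5% lower, and among those averaging 10 to 50 counts, as Tsc22d3, Pck1 and Pdk4 do, 4.81% were higher and 2.46% lower. The share of genes with 50 to 200 counts whose Flag-IP libraries differed by more than 2-fold, as they did for Nr3c1, was 1.55%.

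Per kilobase of annotated exon, Fkbp5 stood at 361 and 350 normalised counts in Flag-IP and 150 in IgG-IP. Klf9 came next, at 27.3 and 20.8 in Flag-IP and 26.2 in IgG-IP, and Foxo3 after it, at 15.9 and 11.9 in Flag-IP and 12.2 in IgG-IP. The remaining 5 genes lay between 2.82 and 10.7 in every library. Foxo1, at 6.71 and 7.43 in Flag-IP and 6.74 in IgG-IP, lay above Tsc22d3 and Pdk4 without overlap. Pdk4 was the lowest of the 5 and Nr3c1 was above Tsc22d3 in each library, although the ranges over libraries overlapped. The order among Nr3c1, Foxo1 and Pck1 changed from library to library. Because counts of protein-coding genes followed the length of the whole gene more closely than that of its exons (Spearman's rho across 14920 genes in IgG-IP of 0.87 for span and 0.47 for exons, a description over genes that share libraries), the order was also taken per kilobase of span. Fkbp5 then stood at 28.8 and 28.0 in Flag-IP and 12.0 in IgG-IP and Klf9 at 4.88 and 3.72 in Flag-IP and 4.69 in IgG-IP. Pck1, whose span is short, moved up to rank 3 in IgG-IP, at 5.88 and 2.54 in Flag-IP and 1.82 in IgG-IP, and Tsc22d3 was last, at 0.388 and 0.243 in Flag-IP and 0.462 in IgG-IP.

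Transcript GC content moved with the fold change across all genes, with a Spearman's rho of 0.61 over the protein-coding genes. The 8 genes span a GC content of 42.2% (Nr3c1) to 53.2% (Foxo3), with a median of 48.4%, against 48.8% for protein-coding genes. At the GC content of Fkbp5, 51.6%, the trend over all genes lay at a log2 fold change of 0.29, against 1.25 for the gene, and with the trend removed Fkbp5 stayed higher in Flag-IP (0.96, adjusted p = 0.003, edgeR's quasi-likelihood test). At the GC content of Nr3c1 the trend lay at -0.49, against -0.68 for the gene. Foxo3, at 0.19, lay below its trend value of 0.46, and Pck1, at 1.20, above its trend value of 0.44. Tsc22d3, at -0.56, also lay below its trend value of -0.02, and Pdk4, at 0.25, above its trend value of -0.29. Klf9 and Foxo1 lay close to theirs.

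**Figure D3:**
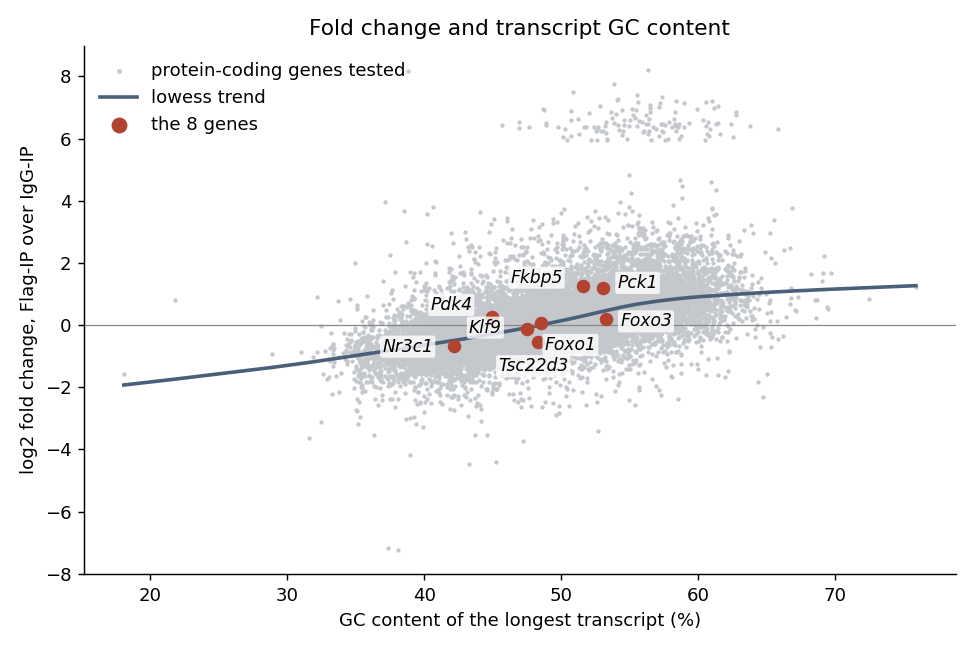
Log2 fold change of Flag-IP over IgG-IP against transcript GC content for the protein-coding genes tested (grey), with the lowess trend (line) and the 8 genes (red). Fkbp5, Pck1 and Pdk4 lie above the line, Tsc22d3, Foxo3 and, slightly, Nr3c1 lie below it, and Klf9 and Foxo1 lie close to it. The separate grey points near the top are almost all genes with 0 counts in IgG-IP, whose fitted values are no measure of size.

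The lists of related genes were set beside the members to see which other parts of the pathway were in the Flag-IP RNA. Of 13 tested chaperones and cochaperones of the receptor, 3 were higher and none lower. The median of their log2 fold changes was 0.59. Besides Fkbp5 they were Fkbp4, the cochaperone that takes the place of Fkbp5 when hormone binds, and Hsp90ab1, the constitutive heat shock protein 90. Fkbp4 had 15 and 14 counts in Flag-IP and 0 in IgG-IP, at least 5.31-fold higher when 3 counts are taken as the floor for IgG-IP (adjusted p = 0.0123, edgeR's quasi-likelihood test). Hsp90ab1 had 26 and 28 counts in Flag-IP and 8 in IgG-IP (log2 1.87 ± 0.66, SE, adjusted p = 0.0433 by edgeR). With the GC trend removed the calls of both were lost, at adjusted p values of 0.0693 and 0.172 by edgeR. The phosphatase Ppp5c had 34 and 24 counts in Flag-IP and 10 in IgG-IP and did not pass.

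Among 14 coregulators of the receptor 1 was higher and 1 lower, with a median of -0.27. The Mediator subunit Med14 was lower, with 34 and 25 counts in Flag-IP and 70 in IgG-IP. With the GC trend removed neither of these genes passed. None of 5 tested genes of ligand supply passed. They include Hsd11b1, which regenerates active glucocorticoid in fat, at 119 and 110 counts in Flag-IP and 111 in IgG-IP (uncertain, since it overlaps Lamb3), and Nr3c2, the mineralocorticoid receptor, at 227 and 249 counts in Flag-IP and 356 in IgG-IP (likewise uncertain, since it overlaps Gm10649).

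Of 14 other glucocorticoid-induced genes tested, 1 passed. That was Bcl6, a transcriptional repressor also listed as a FOXO target, with 38 and 38 counts in Flag-IP and 10 in IgG-IP (log2 2.04 ± 0.56, SE, adjusted p = 0.0064 by edgeR). The well-known targets Sgk1, with 85 and 110 counts in Flag-IP and 105 in IgG-IP, and Zbtb16, with 210 and 253 counts in Flag-IP and 213 in IgG-IP, did not pass; both are named after their values were seen. The median of this list was 0.25. Of 19 FOXO family members and regulators, 3 were higher (Foxo6, Mtor and Ywhag) and 2 lower, with a median of 0.14. Ywhag, a 14-3-3 protein of the kind that holds FOXO factors in the cytoplasm, had 35 and 66 counts in Flag-IP and 14 in IgG-IP (log2 1.96). Foxo6, another forkhead factor, had 32 and 38 counts in Flag-IP and 12 in IgG-IP, and Mtor, the growth kinase of the insulin pathway, had 84 and 125 in Flag-IP and 62 in IgG-IP. With the GC trend removed only Ywhag of these 5 still passed.

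Of 19 tested FOXO targets, Bcl6 was higher and Bnip3, a mitophagy receptor, was lower, with 8 and 8 counts in Flag-IP and 35 in IgG-IP, and the median was 0.37. In the fasting programme of 17 tested genes none was higher and 1 was lower, Ppargc1a, a coactivator of mitochondrial genes, with 49 and 70 counts in Flag-IP and 118 in IgG-IP, and the median was again 0.37. The calls of Bnip3 and Ppargc1a were lost with the GC trend removed, while 1 other gene of the fasting programme was then lower. In glyceroneogenesis, the pathway of Pck1, 1 of 13 tested genes was higher and none lower, with a median of 0.54. That gene was Aqp7, the glycerol channel of fat cells, with 1932 and 1631 counts in Flag-IP and 196 in IgG-IP (log2 3.32 ± 0.27, SE, adjusted p = 2.44e-31 by edgeR), a difference larger than that of any of the 8 genes. None of 11 tested genes of the pyruvate dehydrogenase complex, its kinases and its phosphatases passed, with a median of -0.12.

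Among the relatives of the 8 genes by protein family, 2 of 10 FK506 binding proteins were higher, Fkbp5 and Fkbp4, with a median of 0.06. Of 12 Krüppel-like factors 1 was lower, Klf13, with 418 and 373 counts in Flag-IP and 791 in IgG-IP (log2 -0.86), and the median was 0.43. Klf13 was lower by more, at -1.53, with the GC trend removed. Of the 4 genes of the TSC22 family 1 was lower, Tsc22d2, with 34 and 29 counts in Flag-IP and 72 in IgG-IP (log2 -1.05), and its call was lost with the GC trend removed. Among the pathway and family genes named past the threshold, Aqp7 and Ywhag, like Fkbp5, passed in every alternative setting that gave an adjusted p. Klf13 passed in all but the likelihood ratio test, and Bcl6 in all but total-count scaling. The adipocyte marker Plin4, outside those lists, passed in every such setting too. Fkbp4 and Bnip3 were lost only where the GC trend was removed, alone or with the span trend. Hsp90ab1 passed in 3 of 9, Med14 in 4 of 9, Foxo6 in 4 of 9, Mtor in 4 of 10, Ppargc1a in 3 of 10 and Tsc22d2 in 2 of 9. Each of these counts stands against 5.58% higher and 5.77% lower among all genes tested, and no list was tested as a set.

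**Figure D4:**
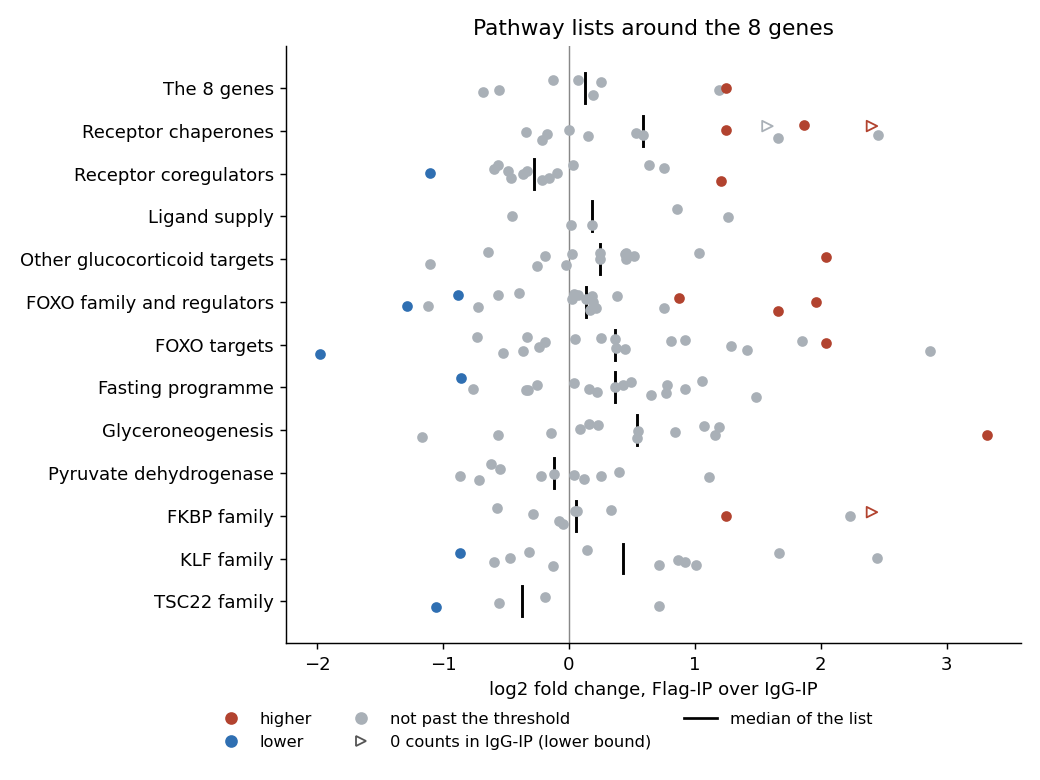
Log2 fold change of Flag-IP over IgG-IP for every tested gene of the 8 genes and of 12 related lists, 1 row per list, with a bar at the median. Red points are higher and blue points lower past the adjusted threshold, and open triangles are lower bounds of genes with 0 counts in IgG-IP; most points are grey, and the receptor chaperones hold 3 red symbols.

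Across the settings tried, Fkbp5 kept its call in every one that gave an adjusted p, with a log2 fold change from 0.73 under total-count scaling to 1.39. No other member passed in any of them, apart from Nr3c1 under total-count scaling.

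**Figure D5:**
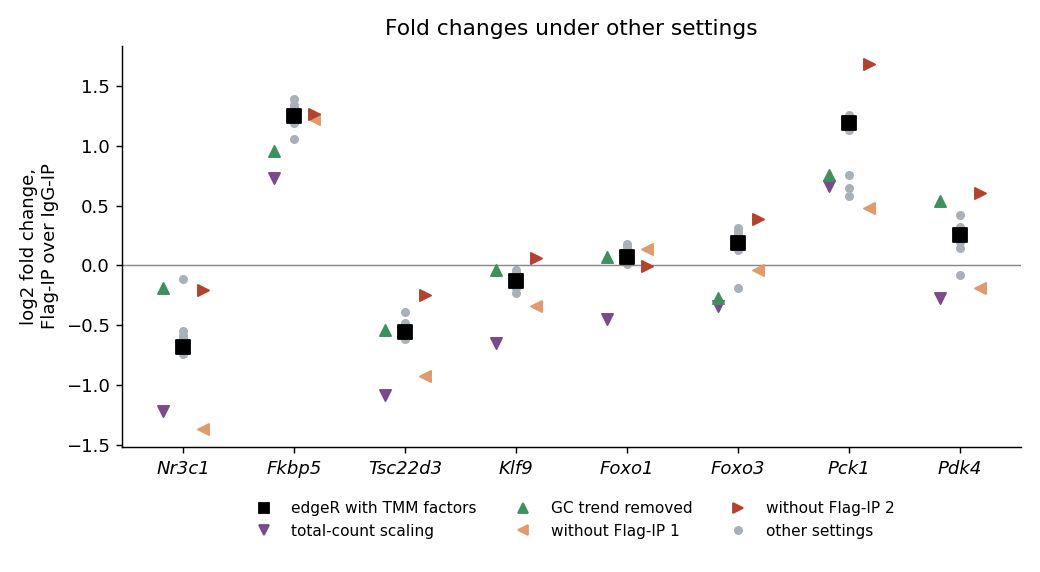
Log2 fold change of Flag-IP over IgG-IP for each of the 8 genes under edgeR with TMM factors (black squares) and under the alternative settings (other symbols). Fkbp5 stays above 0 throughout, from 0.73 upward, while the symbols of Klf9, Foxo1, Foxo3 and Pdk4 lie on both sides of 0.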

How the data were processed

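The authors deposited raw counts of reads per gene (Ensembl identifiers), unnormalised, for the 3 libraries. CASAVA 1.7, Bowtie 0.12.2 and the build mm8 were used, per the submitters' processing notes. How reads were counted, with which annotation and with or without strand, is not stated in the sources used here, so reads of overlapping or antisense genes cannot be told apart. A deposited list of lipid genes holds none of the 8 genes and was not used. Positions, exons and GC content come from GENCODE M21 (GRCm38), matched by identifier for 37693 of 39179 genes.

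Genes were kept with filterByExpr (minimum count 10), scaled by TMM (factors 0.84 and 0.936 for Flag-IP and 1.27 for IgG-IP) and tested with edgeR 4.0.16 in R 4.3.3 (quasi-likelihood, Benjamini-Hochberg, threshold 0.05). The only residual degree of freedom comes from the Flag-IP libraries, and the spread behind p-values and standard errors is the one shared by all genes (biological coefficient of variation 0.189), with the lone IgG-IP library assumed to vary likewise. Standard errors were worked back from the test, as the absolute log2 fold change over the square root of its F statistic. Fitted 95% intervals reach 1.96 such standard errors to either side. A permutation of 2 against 1 libraries cannot pass. Counting intervals are exact 95% binomial intervals, which cover counting error only, as does the floor of 3 counts. The procedure was tested on simulated data.

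The 8 genes and all lists were chosen with earlier results of these data known. Named are the 8 genes, overlapping genes, the nearest genes to Fkbp5 and Nr3c1, and of each list the genes past the threshold and otherwise the largest changes at a mean of at least 20 counts. Some genes that this rule takes are not reported here. Adipoq and Lpl were named outside this rule after their values were seen. The classes by depth, the relation to span and the order of libraries were chosen after the data were seen. Alternatives were other scalings, filters and prior counts, a likelihood ratio test, DESeq2 1.42.0, removal of lowess trends on GC and span, and leaving out each Flag-IP library.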

Additional observations from a re-analysis of the deposited data

How the results depend on the processing

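Fkbp5 passed in every setting that gave an adjusted p. The number of genes higher in Flag-IP was 981 in the reported fit, 342 with total-count scaling, 397 with the GC trend removed, 391 with GC and span trends removed and 131 with DESeq2. The number lower was 1015 in the reported fit, and 3008, 358, 263 and 145 in the same order, with 635 where only the span trend was removed. Of the 8 genes, 1 was lower with total-count scaling, Nr3c1. The median log2 fold change of the 8 genes was -0.39 with total-count scaling and ran from -0.11 to 0.22 when either Flag-IP library was left out. The sign of Pdk4 reversed with total-count scaling (-0.27) and with the span trend removed (-0.079), that of Foxo1 with total-count scaling (-0.44), and that of Foxo3 with total-count scaling (-0.34), the GC trend removed (-0.27) and both trends removed (-0.18). Leaving out the first Flag-IP library also turned the sign of Pdk4 (-0.19) and Foxo3 (-0.035), and leaving out the second that of Foxo1 (-0.0042) and Klf9 (0.06), all values with no test. Total-count scaling lowers every fold change by construction; for the other settings the cause was not tested. DESeq2 gave no adjusted p for the 7 genes other than Fkbp5, and a mean of at least 50 counts left out Tsc22d3, Pck1 and Pdk4. No paired analysis was possible because the groups share only 1 replicate number. At the depth and shared spread of these libraries, the 7 genes other than Fkbp5 would have had to differ by 1.67-fold (Klf9) to 4.45-fold (Pdk4) to pass. For Fkbp5 itself, with far more reads, that limit was 1.59-fold.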

Other observations

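Tsc22d1, a relative of Tsc22d3, had 107 and 119 counts in Flag-IP and 141 in IgG-IP and did not pass, but with the GC trend removed it was lower in Flag-IP. Cdkn1a, a cell cycle inhibitor listed among the glucocorticoid-induced genes, had 10 and 24 counts in Flag-IP and 40 in IgG-IP, and it too was lower past the threshold only in some settings, among them removal of the GC trend (adjusted p = 0.0231, edgeR's quasi-likelihood test).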
